A study of Mus musculus with 18 samples.

Results

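The mitochondrial genome encodes 3 subunits of cytochrome c oxidase (complex IV) and 2 subunits of ATP synthase (complex V), and their mRNAs were followed here in the mouse prostate. The rows were chosen by name: mt-Co1, mt-Co2 and mt-Co3, for the catalytic core of complex IV, and mt-Atp8_6, in which the deposited tables join the overlapping genes of ATP synthase subunits 8 and 6. They are 4 of the 11 mitochondrial mRNA rows and 4 of 55469 genes in each table. RNA came from ventral and lateral lobes of male mice labelled with the strain C56NL/6N, with 3 libraries in each of 6 groups. At 10 weeks of age WT was 10AF to 12AF, KO 13AF to 15AF and A537T 16AF to 18AF. At 30 weeks WT was 1AF to 3AF, KO 4AF to 6AF and A537T 7AF to 9AF. KO mice lose an exon of Elac2 in the cells in which the Pb promoter drives Cre, which are prostate epithelial cells, so that other cells of the lobes keep the gene. A537T mice carry, on both alleles and in the whole body, the substitution of an alanine of ELAC2 by threonine that gives the line its name, and WT mice carry neither change. Both mutant lines of an age were set against the same 3 WT libraries, which were normalised separately with each line.

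ELAC2 is the endonuclease that cuts precursor tRNAs at their 3′ ends, in the nucleus and in mitochondria. Mitochondrial DNA is transcribed into long RNAs in which tRNAs lie between most mRNAs, and cutting at both ends of a tRNA frees the mRNAs beside it. Complex IV passes electrons to oxygen, and complex V uses the proton gradient to make ATP. Both also need subunits that are encoded in the nucleus.

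The sequences at the borders of these mRNAs are shown because they set which cut frees each start. Positions and bases are from GENCODE vM21 on GRCm38, plus strand. A tRNA on the same strand lies 1 base before mt-Co2, tRNA-Asp (mt-Td, chrM:6942-7011), and 1 base before mt-Atp8_6, tRNA-Lys (mt-Tk, chrM:7700-7764). Their last 3 bases, after which ELAC2 cuts, are in capitals.
tRNA-Asp, mt-Td: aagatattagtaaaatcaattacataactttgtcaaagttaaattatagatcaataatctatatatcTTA
tRNA-Lys, mt-Tk: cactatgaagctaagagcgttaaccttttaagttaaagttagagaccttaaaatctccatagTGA

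The first 30 bases of each mRNA follow, with the start codon in capitals, at chrM:5328-5357, chrM:7013-7042, chrM:7766-7795 and chrM:8607-8636.
mt-Co1: ATGttcattaatcgttgattattctcaacc
mt-Co2: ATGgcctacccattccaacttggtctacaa
mt-Atp8_6: ATGccacaactagatacatcaacatgattt
mt-Co3: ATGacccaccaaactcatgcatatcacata

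No tRNA separates mt-Atp8_6 from mt-Co3. The last A of the mt-Atp6 stop codon is the first A of the mt-Co3 start codon, and the 5 bases of both codons are in capitals at chrM:8593-8621. At its other end mt-Co3 touches tRNA-Gly (mt-Tg), with the last base of mt-Co3 in capitals at chrM:9376-9405.
mt-Atp6 to mt-Co3: catgataatacaTAATGacccaccaaact
mt-Co3 to mt-Tg: attgatgaggatctTactcccttagtataa

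That single T is what remains of mt-Co3 after 261 whole codons, and a poly(A) tail is known to complete such a stop codon. The neighbours of mt-Co1, tRNA-Tyr (mt-Ty) before it and tRNA-Ser (mt-Ts1) after it, lie on the opposite strand. mt-Co1 spans 1545 bases (chrM:5328-6872), mt-Co2 684 (chrM:7013-7696), mt-Atp8_6 842 (chrM:7766-8607) and mt-Co3 784 (chrM:8607-9390). The reading frames of mt-Atp8 and mt-Atp6 share 43 bases. The GC content was 39.9% for mt-Co1, 38.6% for mt-Co2, 38.9% for mt-Co3 and 35.2% for mt-Atp8_6. The tables list 22 mitochondrial tRNA rows, none with more than 2 reads, so tRNAs and precursors were not measured, and a count of an mRNA row does not separate mature from uncut RNA.

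**Figure D1:**
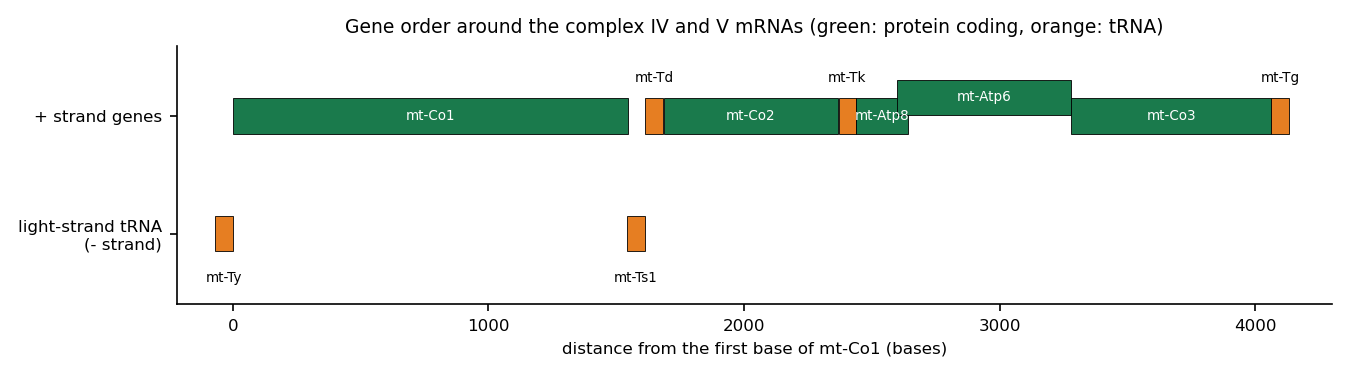
Gene order along the mitochondrial genome, in bases from the first base of mt-Co1, for the 4 rows (green) and the tRNAs beside them (orange), with opposite-strand tRNAs on the lower line. mt-Atp6 is drawn slightly raised where it overlaps mt-Atp8, and mt-Co3 follows it with no tRNA between them.

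Libraries held 6569642 to 11225281 recovered reads, of which a member row held 12109 to 159209, so that counting error was at most 0.909% of a level. The libraries were not of like makeup. Of the 10-week counts, skeletal muscle genes (30, among them Ttn) took 4.07, 6.78 and 13.2% in the WT libraries, against 0.0696, 2.13 and 0.0642% in the KO libraries and 4.52, 3.35 and 1.63% in the A537T libraries. At 30 weeks no library exceeded 0.0785%. All 30 had a read in every library at 10 weeks except 15AF, where 25 had one and Myh4, a myosin heavy chain gene named after its values were seen, was at 0. Seminal vesicle genes (9, among them Svs2) took 6.57 to 10.3% in KO at 10 weeks, against 4.64, 1.77 and 0.000808% in WT, and 6.34 to 9.18% in 4AF, 6AF, 7AF and 9AF at 30 weeks. The 11 prostate epithelium markers all had reads in every library, with 4.26 to 13.3% of counts in WT at 10 weeks and 1.12 to 4.24% in KO. Elac2 itself had 111 to 119 normalised counts in KO and 124 to 166 in WT at 10 weeks (log2 fold change -0.31, limma adjusted p = 0.325), in a gene-level count that also holds the exons left in place.

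Per kilobase of coding length, the levels kept 1 order in 17 of the 18 libraries: mt-Co1, then mt-Co3, mt-Co2 and mt-Atp8_6. In 12AF mt-Co3 exceeded mt-Co1. The ratio of mt-Co1 to mt-Co3 per kilobase ran from 0.981 to 1.24 with a median of 1.16, so these neighbours in the order were close. The ratio of mt-Co2 to mt-Co3 stayed between 0.549 and 0.851, and that of mt-Co2 to mt-Atp8_6 between 1.137 and 1.61, so neither pair changed order in any library. The widest spread was in mt-Co3 over mt-Atp8_6, from 1.42 in 13AF to 2.93 in 12AF, although no tRNA lies between these mRNAs. Together the 4 rows held 63.4 to 80.0% of the counts of mitochondrial mRNAs.

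At 10 weeks all 4 mRNAs were lower in every KO library than in every WT library, with a median log2 fold change of -0.98 against -0.01 for all 15089 genes tested. Groups separated in this direction for 14.3% of genes and in the other for 11.7%. Complex IV mRNAs had the larger differences, mt-Co3 first. mt-Co1, the subunit that holds the oxygen-binding site, had 77272, 108539 and 162409 normalised counts in WT and 54531, 64527 and 43119 in KO. The groups did not overlap, with a log2 fold change of -1.06 ± 0.40 (SE, n = 3 each; limma adjusted p = 0.233). mt-Co2, the subunit that takes electrons from cytochrome c, had 23257, 30577 and 40259 in WT and 16479, 18799 and 13885 in KO. Its log2 fold change was -0.91 ± 0.27 (SE; limma adjusted p = 0.184).

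mt-Co3, a core subunit without a metal centre, had 33185, 48992 and 83986 normalised counts in WT and 23559, 26430 and 18692 in KO. The WT libraries differed among themselves more for this mRNA than for the other members, with a coefficient of variation of 46.9% (37.1% for mt-Co1, 27.2% for mt-Co2, 15.1% for mt-Atp8_6). Its log2 fold change was -1.18 ± 0.38 (SE; limma adjusted p = 0.192). mt-Atp8_6, for subunits of the proton-conducting part of ATP synthase, had 22903, 25810 and 30828 in WT and 17847, 19799 and 13843 in KO. The difference of -0.63 ± 0.24 on the log2 scale was the smallest of the members (SE; limma adjusted p = 0.226).

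None of the 4 passed the threshold of 0.05 in limma with Benjamini-Hochberg adjustment, nor did any other gene, while the unadjusted p was under 0.05 for all 4 (11.5% of genes in this direction and 7.97% in the other, 2930 genes in all). edgeR on the recovered reads also called no gene (2814 at an unadjusted p under 0.05), with adjusted p from 0.209 to 0.267 for the members. DESeq2 on the same reads called 714 genes (4.71% of those tested, 3.51% as lower), all 4 members among them (adjusted p = 0.0115 for mt-Co1, 0.00798 for mt-Co2, 0.00889 for mt-Co3 and 0.0466 for mt-Atp8_6). Without the WT library 10AF, limma called mt-Co1 (adjusted p = 0.0371), mt-Co2 (0.0257) and mt-Co3 (0.0264), and not mt-Atp8_6 (0.0584), but it then called 2886 genes, 19.2% of those tested (9.57% as lower). Without 12AF the log2 fold changes were -0.78 (mt-Co1), -0.71 (mt-Co2), -0.83 (mt-Co3) and -0.52 (mt-Atp8_6).

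Every member stayed below 0 when libraries were scaled to the same total, which moved the median of all genes to 0.20. The same held under quantile normalisation (-0.81 for mt-Co1, -0.43 for mt-Co2, -0.82 for mt-Co3 and -0.14 for mt-Atp8_6). Among the WT libraries 12AF was highest and 10AF lowest in each member, and also in the share of skeletal muscle RNA. With a skeletal muscle score in the model the log2 fold changes in KO were -0.44 ± 0.65 for mt-Co1, -0.45 ± 0.44 for mt-Co2, -0.58 ± 0.62 for mt-Co3 and -0.22 ± 0.38 for mt-Atp8_6 (SE), with a limma adjusted p of 1.00. All 30 muscle genes were lower in KO (50.6% of all genes), with a median log2 fold change of -5.92. Any that pass the minimum mean of 10 through muscle-rich WT libraries alone are bound to be lower, so this count only describes makeup. The muscle shares of KO and WT did not overlap, so this fit cannot divide the difference between genotype and muscle RNA. The part of muscle RNA in the result was not tested apart from genotype. Seminal vesicle RNA also separated the groups, at 6.57 to 10.3% of counts in KO and at most 4.64% in WT. No fit at 10 weeks held a seminal vesicle score, so its part was not tested. Smooth muscle genes (8) had a median log2 fold change of 0.85, adipocyte genes (6) -1.10, macrophage genes (5) -0.33, endothelial genes (4) -0.30, and the plasma cell gene tested 0.03. Fewer cells of a type and less RNA per cell cannot be told apart in such bulk RNA.

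**Figure D2:**
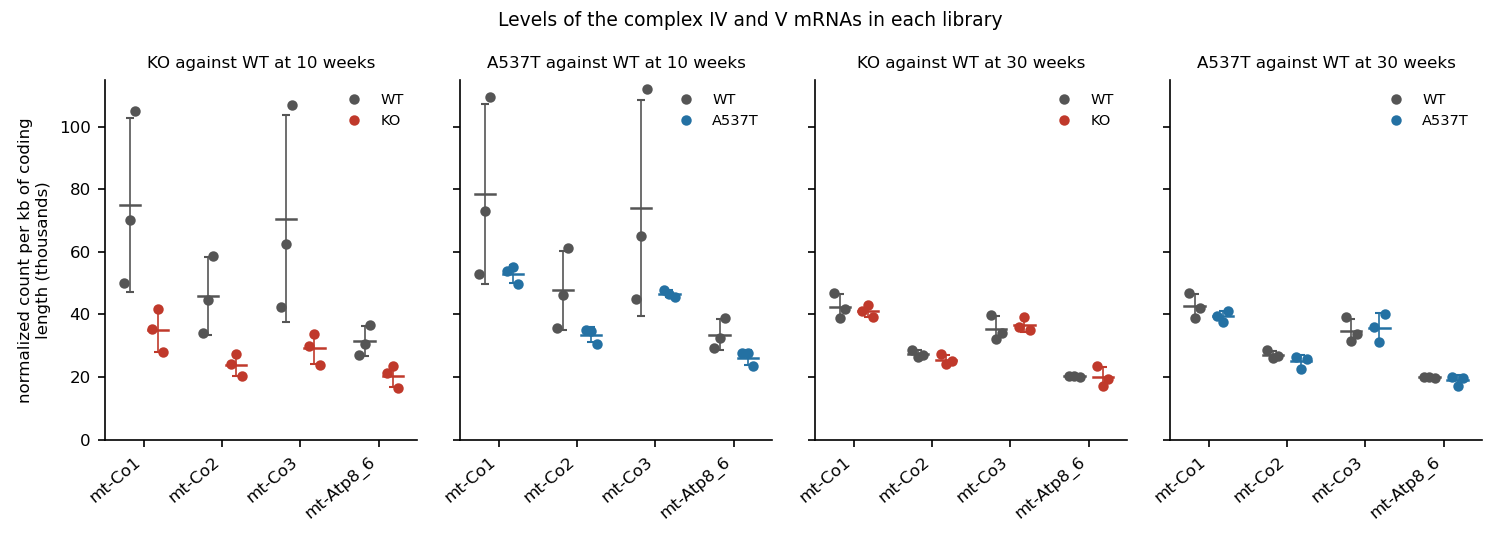
Normalised counts per kilobase of coding length of each mRNA in each library (points), with group means (lines) and SD (bars, n = 3), for the 4 comparisons. At 10 weeks the KO points lie below all WT points for every mRNA, while at 30 weeks the groups overlap.

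In A537T at 10 weeks the same WT libraries, as normalised in that table, were set against a tighter mutant group. mt-Co1 had 81793, 112773 and 169419 normalised counts in WT and 83076, 85209 and 76739 in A537T, so the groups overlapped. mt-Co3 overlapped too, at 35246, 51077 and 87910 against 37496, 36571 and 35715. mt-Co2 did not overlap, at 24515, 31637 and 41820 in WT and 24076, 23848 and 21004 in A537T.

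mt-Atp8_6 was also separate, at 24705, 27328 and 32772 against 23191, 23322 and 19717, which makes 2 of 4 members below all WT libraries (6.34% of the 15131 genes tested, with 5.58% above all WT libraries). The gaps between the groups were small beside the spread of WT. Log2 fold changes were -0.51 ± 0.41 for mt-Co1, -0.48 ± 0.27 for mt-Co2, -0.56 ± 0.38 for mt-Co3 and -0.35 ± 0.23 for mt-Atp8_6 (SE, n = 3 each), with limma adjusted p from 0.751 to 0.787. Leaving out the WT library 12AF gave values of -0.24, -0.28, -0.21 and -0.24 in the same order, whereas leaving out 10AF gave -0.76, -0.67, -0.87 and -0.44. The sign of mt-Atp8_6 turned under quantile normalisation (0.04), and that of mt-Co3 with the skeletal muscle score (0.02), where the other members lay between -0.08 and -0.01. No member had an unadjusted p under 0.05 in limma, which 3.67% of genes had with a lower and 2.76% with a higher level. No gene passed the threshold in limma (973 at an unadjusted p under 0.05) or edgeR (1102), and DESeq2 called 90, no member among them.

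At 30 weeks no member separated the groups in either line, where 8.41% of genes in KO and 9.4% in A537T lay below all WT libraries and 7.92 and 9.18% above them. In each line 3 of the 4 had a log2 fold change below 0 (50.9% of genes in KO, 50.7% in A537T). None had an unadjusted p under 0.05 in limma, which 5.41% of genes had with a lower and 5.56% with a higher level in KO, and 6.28 and 7.35% in A537T. In KO mt-Co1 had 72394, 60174 and 64673 normalised counts in WT and 63502, 66605 and 60568 in KO. mt-Co2 had 19648, 17958 and 18440 against 18660, 16513 and 17125. These ranges overlapped, with log2 fold changes of -0.05 ± 0.16 (95% interval -0.43 to 0.33) and -0.10 ± 0.12 (-0.38 to 0.18).

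mt-Co3 had 31252, 25201 and 26804 in WT and 28171, 30787 and 27451 in KO, a log2 fold change of 0.06 ± 0.14 (-0.28 to 0.39). mt-Atp8_6 stood out by its spread, with WT libraries at 17126, 17104 and 16799 and KO libraries at 19836, 14348 and 16309. Its log2 fold change was -0.03 ± 0.15 (-0.38 to 0.32), and it was 0.08 under quantile normalisation or without 5AF. The KO library 5AF was lowest in mt-Atp8_6 and highest in mt-Co1 and mt-Co3, and it was also the KO library with almost no seminal vesicle RNA.

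In A537T at 30 weeks the levels were as close to WT. mt-Co1 had 72390, 60114 and 64830 normalised counts in WT and 61275, 58266 and 63583 in A537T, and mt-Co3 had 30673, 24712 and 26374 against 28129, 24425 and 31608. mt-Co2 had 19487, 17794 and 18334 against 18091, 15521 and 17670, and mt-Atp8_6 16902, 16865 and 16621 against 16917, 14458 and 16492. The ranges of the groups overlapped for all 4. Log2 fold changes were -0.10 ± 0.15 (mt-Co1), -0.12 ± 0.12 (mt-Co2), 0.04 ± 0.16 (mt-Co3) and -0.08 ± 0.12 (mt-Atp8_6; SE, n = 3 each), with limma adjusted p from 0.668 to 0.924. At 30 weeks limma and edgeR called no gene in KO (1616 and 1746 at an unadjusted p under 0.05) or A537T (2016 and 2177), while DESeq2 called 280 and 473, no member among them.

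**Figure D3:**
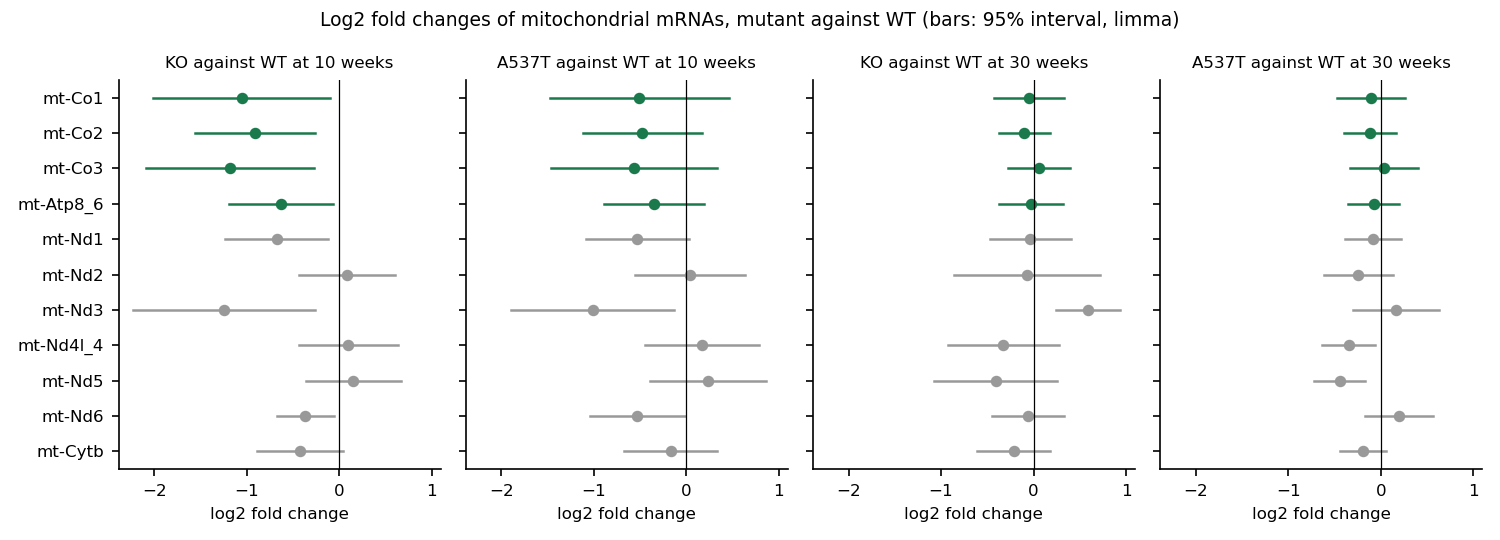
Log2 fold changes (mutant against WT) of the 4 members (green) and the other 7 mitochondrial mRNA rows (grey) on the log2(normalised count + 1) scale, with 95% intervals from limma. In KO at 10 weeks the intervals of all 4 members lie below 0, and in the other comparisons every interval of a member spans 0.

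The change from 10 to 30 weeks was taken for each line as the mutant effect at 30 weeks minus that at 10 weeks. For the mean of the 4 members it was 0.92 in KO (effects of -0.95 at 10 weeks, -0.03 at 30 weeks; exact permutation p = 0.075, adjusted p = 0.272 over 26 tests) and 0.41 in A537T (-0.47 and -0.07; exact permutation p = 0.25, adjusted p = 0.368). mt-Co3 gave the largest difference, 1.24 in KO (exact permutation p = 0.03, adjusted p = 0.26). None of the 26 tests passed adjustment. Genotype was permuted within each age, so these tests assume no mutant effect at either age, rather than equal effects at both. A low p could therefore come from an effect at 1 age alone. The ages also differed in makeup. Skeletal muscle genes took 4.07 to 13.2% of counts in WT and 0.0642 to 2.13% in KO at 10 weeks, and at most 0.0785% in any library at 30 weeks. The age tests held no marker score, so a change with age and a difference in makeup cannot be told apart in them.

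Ratios within a library do not depend on its size factor, so they compare the mRNAs with each other. No ratio differed from WT by a test that passed, and 3 of the 6 pairs of members separated the groups in KO at 10 weeks. Per kilobase, mt-Co3 over mt-Atp8_6 was 1.56, 2.04 and 2.93 in WT and 1.42, 1.43 and 1.45 in KO. The KO libraries were nearly alike and all lay below WT, by -0.55 ± 0.26 on the log2 scale (SE; exact permutation p = 0.1, the smallest that 3 against 3 allow, adjusted p = 0.533 over 32 tests). mt-Co1 over mt-Atp8_6 was 1.84, 2.29 and 2.87 in WT and 1.67, 1.78 and 1.70 in KO, and mt-Co2 over mt-Atp8_6 was 1.25, 1.46 and 1.61 against 1.137, 1.169 and 1.235.

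These also separated, by -0.42 ± 0.19 and -0.28 ± 0.11 on the log2 scale (SE; exact permutation p = 0.1, adjusted p = 0.533). mt-Co1 over mt-Co2 differed by -0.14 ± 0.09 and mt-Co1 over mt-Co3 by 0.13 ± 0.08, with overlapping groups (exact permutation p = 0.2 and 0.3). mt-Co2 over mt-Co3 differed by 0.27 ± 0.16 (exact permutation p = 0.2). These differences depended on single WT libraries. Without 12AF mt-Co3 over mt-Atp8_6 differed by -0.31, mt-Co1 over mt-Atp8_6 by -0.26 and mt-Co2 over mt-Co3 by 0.12, and without 10AF by -0.77, -0.58 and 0.39. In all, 5 of the 8 ratios computed separated the groups in KO at 10 weeks, but the ratios share the same 4 mRNAs, and none passed adjustment. In WT all 5 rose from 10AF to 11AF to 12AF, and so did the skeletal muscle share (4.07, 6.78 and 13.2%). In A537T at 10 weeks all 5 were highest in 18AF, the library of that group with the least muscle RNA (1.63%). No ratio was fitted with the muscle score, so the part of muscle RNA in the ratios was not tested.

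The geometric mean of mt-Co1 and mt-Co3, which have no same-strand tRNA directly before them, over that of mt-Co2 and mt-Atp8_6, which do, was computed from counts. It was 2.19, 2.60 and 3.32 in WT and 2.09, 2.14 and 2.05 in KO at 10 weeks (-0.35 ± 0.17 on the log2 scale, SE; exact permutation p = 0.1, adjusted p = 0.533). WT spanned more than the distance between the groups, and the difference was -0.19 without 12AF. The difference in A537T at 10 weeks was -0.12 ± 0.18, while 30-week KO gave 0.07 ± 0.14 and 30-week A537T 0.07 ± 0.08 (exact permutation p = 0.6, 0.7 and 0.4). A537T separated from WT in 0 of 8 ratios at either age. Without 12AF, 6 of the 8 ratios in A537T at 10 weeks changed sign.

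At 30 weeks 1 ratio separated in KO, mt-Co1 over mt-Co3, at 1.175, 1.212 and 1.224 in WT and 1.144, 1.098 and 1.120 in KO per kilobase. The difference was -0.10 ± 0.02 on the log2 scale (SE; exact permutation p = 0.1, adjusted p = 0.533). In A537T it was 1.11, 1.21 and 1.02, which overlapped WT as normalised with that line. mt-Co2 over mt-Atp8_6 in A537T at 30 weeks was the tightest of the ratios, from 1.316 to 1.322.

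**Figure D4:**
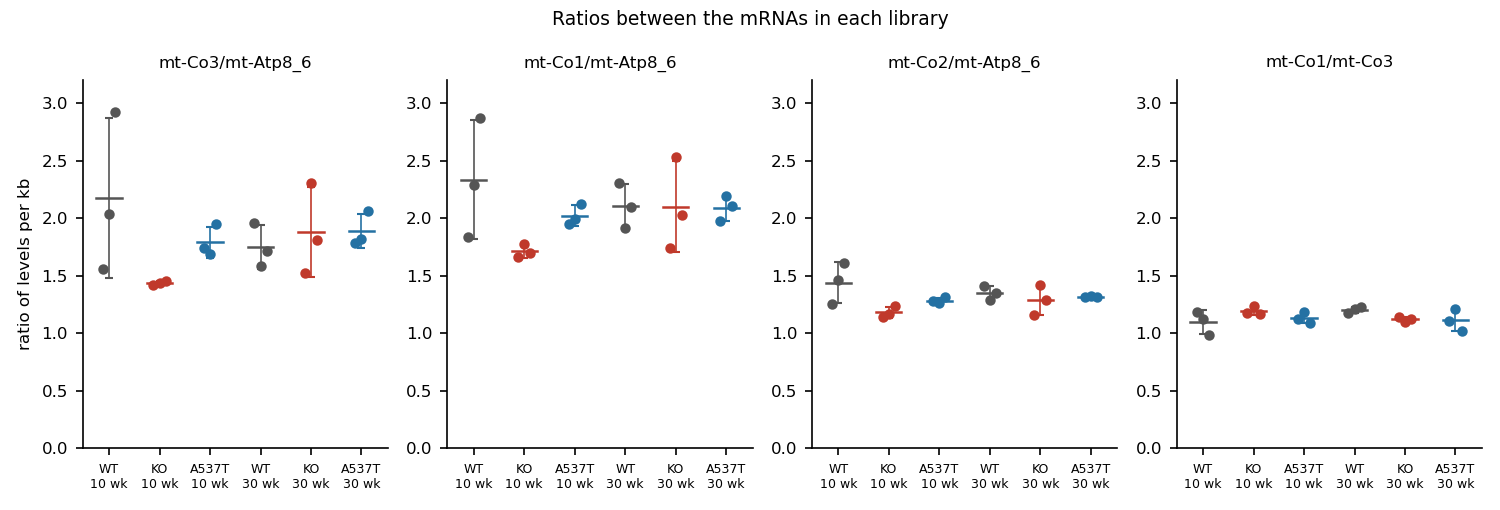
Ratios of levels per kilobase between pairs of the mRNAs in each of the 18 libraries (points) by group, with group means (lines) and SD (bars, n = 3), the WT values taken from the KO tables. WT at 10 weeks spans 1.56 to 2.93 in mt-Co3 over mt-Atp8_6, and KO at 10 weeks 1.42 to 1.45.

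The other mitochondrial mRNAs, for subunits of complexes I and III, did not all go with the members. In KO at 10 weeks mt-Nd3 (-1.24 ± 0.41), mt-Nd1 (-0.67 ± 0.23), mt-Cytb (-0.42 ± 0.20) and mt-Nd6 (-0.37 ± 0.13) lay on the same side as the members. mt-Nd2 (0.09 ± 0.22), mt-Nd4l_4 (0.10 ± 0.23) and mt-Nd5 (0.15 ± 0.22) did not (log2, SE). The median over these 7 was -0.37, with limma adjusted p from 0.197 to 0.840.

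The geometric mean of the 4 members over that of these 7, from counts, was 4.28, 5.61 and 7.30 in WT and 3.763, 3.663 and 3.597 in KO at 10 weeks. KO lay below WT by -0.61 ± 0.22 on the log2 scale (SE; exact permutation p = 0.1, adjusted p = 0.533). The other comparisons overlapped, at -0.22 ± 0.25 in A537T at 10 weeks, 0.05 ± 0.21 in KO at 30 weeks and 0.07 ± 0.08 in A537T at 30 weeks. In KO at 30 weeks mt-Nd3 had a log2 fold change of 0.59 ± 0.15 (limma adjusted p = 0.386), while the members had values between -0.10 and 0.06.

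Most tested nuclear subunits of the same complexes also had log2 fold changes below 0 at 10 weeks. In KO, 14 of 15 tested complex IV genes, muscle isoforms included, had a log2 fold change below 0 (50.6% of all genes), with a median of -1.05. For complex V it was 17 of 17 genes, with a median of -0.94. No gene of either list passed in limma. Cox4i1, the main regulatory subunit of complex IV, had 1405, 1719 and 2234 normalised counts in WT (lowest, median and highest) and 1066, 1176 and 1179 in KO, a log2 fold change of -0.62 ± 0.18 (limma adjusted p = 0.183). Atp5a1, a catalytic-head subunit of ATP synthase, had 3244, 4363 and 6909 against 2287, 2359 and 2748 (-0.91 ± 0.27, limma adjusted p = 0.186).

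Atp5b, the catalytic subunit itself, differed by -0.62 ± 0.24, Atp5f1 of the peripheral stalk by -0.88 ± 0.27 and Cox6b1 by -0.89 ± 0.26, while Cox7a2l, a factor of supercomplex assembly, overlapped at -0.18 ± 0.13 (log2, SE). The muscle isoforms Cox6a2 (-6.10 ± 1.75), Cox7a1 (-4.08 ± 1.04) and Cox8b (-4.29 ± 1.44), named after their values were seen, had the lowest values of these lists. They are part of the complex IV count and median, and a median without them is not given here. A gene that passes the minimum mean through muscle-rich WT libraries alone is bound to be lower in KO. Of their non-muscle counterparts, also named after their values were seen, Cox6a1 (0.16 ± 0.17) and Cox8a (-0.19 ± 0.13) overlapped between the groups, while Cox7a2 (-0.83 ± 0.24) was lower in every KO library than in every WT library. In A537T at 10 weeks the medians were -0.52 (13 of 15 below 0) and -0.49 (17 of 17), where 48.5% of all genes were below 0. At 30 weeks they were 0.0046 (5 of 12) and -0.03 (10 of 17) in KO and -0.08 (8 of 12) and -0.08 (12 of 17) in A537T. The complex IV genes tested were 15 at 10 weeks and 12 at 30 weeks, so their medians are not over the same genes.

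Assembly factors differed less in KO at 10 weeks, with medians of -0.39 over 21 genes of complex IV and -0.55 over 5 of complex V, and 18 mitochondrial RNA processing genes had a median of -0.24. At 30 weeks the medians of these 3 lists in KO were -0.01, 0.18 and 0.03, and in A537T -0.03, 0.06 and 0.03. No gene of these lists passed in limma in any comparison.

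The 4 mRNAs took 1.95, 2.51 and 3.07% of all counts in WT at 10 weeks, 1.51, 1.59 and 1.19% in KO and 1.88, 1.95 and 1.95% in A537T. At 30 weeks they took 1.29 to 1.58% in WT, 1.28 to 1.56% in KO and 1.33 to 1.42% in A537T. The KO libraries at 10 weeks, at 1.19 to 1.59%, lay around the range of the 30-week libraries, and the 10-week WT and A537T libraries lay above it. These shares come from tables normalised separately, but a share within a library does not depend on that scaling. The reads of a WT library differ slightly between the 2 tables of its age, and so does its share (1.954 and 1.959% in 10AF). Among the 10-week WT libraries the order of the member shares was that of the muscle shares. Among the A537T libraries it was the reverse, with 4.52% of muscle RNA and the lowest member share (1.88%) in 16AF, and 1.63% of muscle RNA and 1.95% in 18AF.

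**Figure D5:**
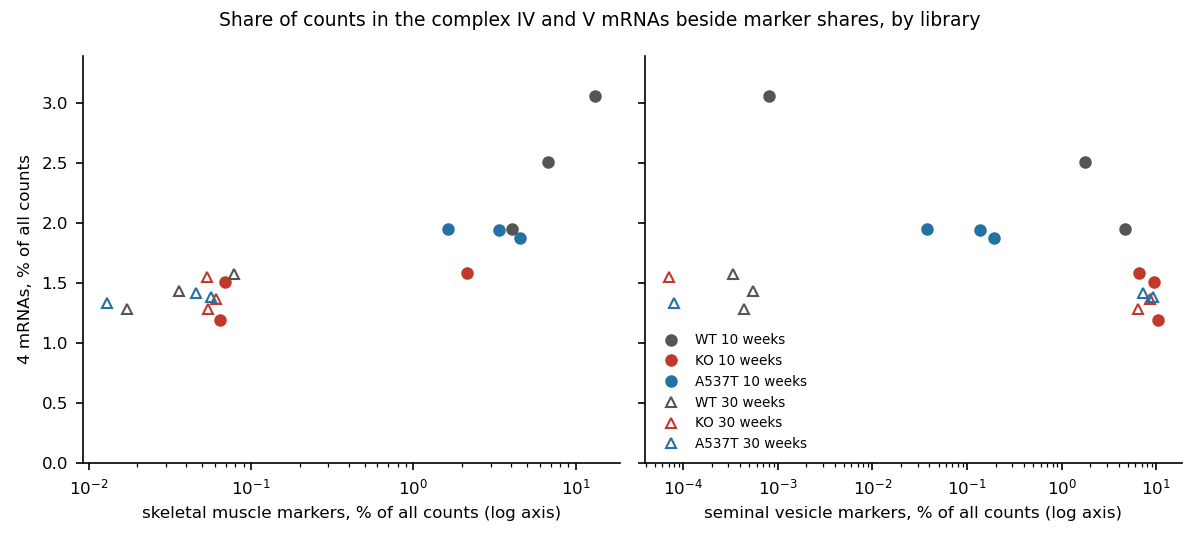
Share of all counts in the 4 mRNAs against the share in 30 skeletal muscle markers (left) and in 9 seminal vesicle markers (right), on log x axes, for the 18 libraries by group. The libraries highest in the mRNAs, at 2.51 and 3.07%, are the 10-week WT libraries with 6.78 and 13.2% of muscle RNA.

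Across the 6 libraries of each 10-week table the members ran close together, with Pearson's r from 0.89 to 1.00 over their pairs. At 30 weeks r fell to between -0.31 and 0.91, where the levels spanned less. These are descriptions over 6 libraries that share a normalisation and hold both genotypes. By the lowest of its 4 values of r with the mean of the members (1 per table, 6 libraries each), the nuclear gene most like them of 14063 genes was Ddo, for D-aspartate oxidase (lowest r 0.84). It was followed by Cfl2, a cofilin (0.83), Pink1, a mitochondrial kinase (0.80), Gm38077 (0.77) and Gng5, a G protein subunit (0.76). Of the other mitochondrial mRNAs mt-Nd6 came nearest (0.56) and mt-Nd5 least near (-0.62).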

How the data were processed

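Total RNA of the prostate lobes was extracted with an miRNeasy kit and sequenced on the NovaSeq platform with a TruSeq protocol. The authors trimmed reads (Trim Galore 0.4.1, cutadapt 1.18), aligned them with STAR 2.7.3a to GRCm38.p6 masked for nuclear copies of mitochondrial DNA, with their own mitochondrial annotation, and quantified them with Salmon as a stranded library with corrections for sequence and GC bias. The authors deposited 4 tables of 6 libraries, whose values (unit: signal) are per-gene counts scaled with DESeq2 1.26 by 1 size factor for each library. Columns carry library names only and were assigned to groups, not replicates, through the study's named sheets, whose mean counts they match. The deposited log2 fold change, p-value and similar columns of the authors' own comparisons were not used. At least 99.99% of values were whole multiples of 1 read (within 0.1 read). WT reads of the members differ between the 2 tables of an age by -1.60 to 1.99%. Of the genes with a read in either table, 53.6 to 64.1% had other reads in the second, so more than a size factor differs.

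Genes with a mean of at least 10 were tested on log2(normalised count + 1), where a fold change of low genes is understated, with limma 3.58.1 in R 4.3.3 (mean trend, Benjamini-Hochberg over all genes, threshold 0.05). The fit was checked on simulated counts with the same dispersion for all genes and no differences in tissue makeup. That setting is simpler than these libraries. Ratios and age effects were tested by 2-sided exact permutation (20 and 400 arrangements, adjusted over 32 and 26 tests). Alternatives were DESeq2 1.42.0 and edgeR 4.0.16 on recovered reads, other scalings, pseudocounts and minima, marker covariates, and leaving out each library. Python 3.11.15 with numpy 2.4.6, pandas 2.3.3 and matplotlib 3.10.9 was used. The members and lists were chosen with earlier results of these data known. Named genes were the members, Elac2, other mitochondrial mRNAs, the 3 most abundant nuclear subunits per complex, the top gene of marker lists, and the 5 nuclear genes most correlated with the members. Myh4, the muscle isoforms of complex IV subunits and their counterparts were named after their values were seen. Mice were matched for age and by littermates across genotypes, per the labels, but which libraries share a litter is not given in the sources used here, nor is a batch, so p-values measure the spread between these libraries.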

Additional observations from a re-analysis of the deposited data

Results flagged for a closer look

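In 5 measures every mutant library lay on one side of the WT mean at 10 weeks and on the other side at 30 weeks, and the test of the difference (effect at 30 weeks minus effect at 10 weeks, log2, exact permutation of genotype within age, adjusted over 26 tests) passed for none of them. In KO the difference was -0.23 for mt-Co1 over mt-Co3 (exact p = 0.015, adjusted p = 0.26) and -0.43 for mt-Co2 over mt-Co3 (exact p = 0.025, adjusted p = 0.26). In A537T it was -0.20 for mt-Co1 over mt-Co3 (exact p = 0.115, adjusted p = 0.272), 0.33 for mt-Co3 over mt-Atp8_6 (exact p = 0.29, adjusted p = 0.377) and 0.29 for the 4 members over the other mitochondrial mRNAs (exact p = 0.32, adjusted p = 0.396). Both lines are set against the same WT libraries, so the values in A537T are not independent of those in KO.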

How the results depend on the processing

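No paired analysis was possible because the columns carry no replicate numbers and nothing ties single libraries to a litter. Setting the libraries left out aside, 134 of 144 log2 fold changes of members and all 52 age differences kept their direction and their side of the threshold. All 64 ratio differences kept their direction (3 libraries against 3 cannot pass the threshold). Ratios were repeated with another pseudocount and the same total, which hardly enter ratios of such high counts, so their directions were fixed in advance. Another minimum mean or no mean trend leaves a fold change as it is and can alter only its p-value. For KO at 10 weeks DESeq2 gave -1.09 (mt-Co1), -0.92 (mt-Co2), -1.26 (mt-Co3) and -0.62 (mt-Atp8_6), all called, and over all alternatives the lowest adjusted p of the members ran from 0.00798 to 0.0466 and the highest was 1.00. Signs turned for mt-Co3 in A537T with the skeletal muscle score at 10 weeks (0.019) and the seminal vesicle score at 30 weeks (-0.14), for mt-Co1 in KO with the latter (0.0060), and for mt-Atp8_6 under quantile normalisation in A537T at 10 weeks (0.040), KO at 30 weeks (0.084) and A537T at 30 weeks (0.0040). The cause was not tested.

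Against 0 genes called by limma, DESeq2 called 714 and 90 (KO and A537T, 10 weeks) and 280 and 473 (30 weeks). Without the mean trend limma called 1 (KO) and 2 (A537T) at 10 weeks, with a minimum mean of 1 it called 2 in A537T at 10 weeks, and with the seminal vesicle score 3 in A537T at 30 weeks. Leaving out 1 library gave 0 to 2886 calls in KO (2886 without 10AF, 185 without 14AF) and 0 to 50 in A537T (50 without 10AF) at 10 weeks, and 0 to 944 in KO (944 without 5AF) and 0 to 1224 in A537T (1224 without 8AF) at 30 weeks. Quantile normalisation moved the medians of nuclear complex IV and V genes in A537T at 30 weeks to -0.0060 and -0.0048.

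With 1 library left out, the log2 fold changes in KO at 10 weeks ran from -1.32 to -0.78 (mt-Co1), -1.11 to -0.71 (mt-Co2) and -1.50 to -0.83 (mt-Co3), and no ratio there turned, with mt-Co3/mt-Atp8_6 from -0.77 to -0.31, the grouped ratio from -0.49 to -0.19 and the 4 members over the other mitochondrial mRNAs from -0.80 to -0.42. At 30 weeks they ran from -0.11 to 0.026 (mt-Co1), -0.0087 to 0.15 (mt-Co3) and -0.15 to 0.081 (mt-Atp8_6) in KO, and -0.050 to 0.14 (mt-Co3) in A537T. Log2 ratio differences in A537T at 10 weeks, where the sign turned without 12AF, ran from -0.095 to 0.045 (mt-Co1/mt-Co2), -0.021 to 0.11 (mt-Co1/mt-Co3), -0.32 to 0.0042 (mt-Co1/mt-Atp8_6), -0.067 to 0.21 (mt-Co2/mt-Co3), -0.43 to 0.026 (mt-Co3/mt-Atp8_6) and -0.26 to 0.035 (mt-Co1 and mt-Co3 over mt-Co2 and mt-Atp8_6). In KO at 30 weeks they ran from -0.017 to 0.11, -0.16 to 0.11, -0.14 to 0.0023, -0.072 to 0.23 and -0.045 to 0.17 (mt-Co1/mt-Co2, mt-Co1/mt-Atp8_6, mt-Co2/mt-Atp8_6, mt-Co3/mt-Atp8_6 and the grouped ratio), and from -0.14 to 0.19 for the 4 members over the other mitochondrial mRNAs. In A537T at 30 weeks they ran from -0.020 to 0.054 (mt-Co1/mt-Co2) and -0.093 to 0.039 (mt-Co1/mt-Atp8_6). The age differences in A537T ran from -0.030 to 0.11 (mt-Co1/mt-Co2), -0.031 to 0.29 (mt-Co1/mt-Atp8_6) and -0.00092 to 0.18 (mt-Co2/mt-Atp8_6). Counting error of the members was small beside the spread between 3 libraries, which limits these comparisons.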
